A study of Homo sapiens with 17 samples.

Results

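The spliceosome genes are the 126 genes, of 16884 in the deposited table, that its KEGG annotation places in the pathway named Spliceosome, after the 6 genes of the HSPA chaperone family in that pathway were left out. Their messenger RNA was measured in BEAS-2B, an immortalised, wild-type line of human bronchial epithelial cells kept in the growth medium BEGM. All libraries come from this line: 6 control libraries had 0 mM acetaldehyde in the medium, 6 had 10 mM and 5 had 16 mM, each for 24 h. Separate cultures are not named in the labels, and p-values here reflect only the library-to-library spread, which may be technical. A change in messenger RNA per cell and a change in the number of surviving cells of 1 kind cannot be told apart in such bulk samples.

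The spliceosome removes introns from pre-messenger RNA. It assembles on each intron from small nuclear ribonucleoproteins (snRNPs): U1 binds the 5′ splice site, U2 the branch site, and the U4/U6.U5 tri-snRNP joins before the PRP19 complex and RNA helicases remodel the particle for the 2 catalytic steps. Rings of Sm and LSm proteins hold the small nuclear RNAs, whereas SR and hnRNP proteins bind exons and introns and steer which splice sites are used. The exon junction complex is left on the spliced messenger RNA. The members were placed in 9 such roles, and 3 genes stayed unplaced.

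Spliceosome genes were well expressed. FPKM is a level scaled to transcript length and library depth, and the median control level of the 125 members with enough counts to be tested was 58.6 FPKM, against 14.4 FPKM over all 12564 tested genes. The remaining member, NCBP2L, was listed at 0 FPKM in all 6 controls. The highest control levels were those of HNRNPA1 (571 ± 69.8 FPKM, SD, n = 6), SNRPD2 (446 ± 107 FPKM) and SNRPB (445 ± 27.2 FPKM). LSM8 had the lowest level of a tested member (3.87 ± 0.353 FPKM).

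Total counts lay between 15952673 and 18809242 per library, and members took 2.02% to 2.39% of the counts in 16 libraries. Library 1 of the 10 mM group stood apart: members took 2.57% of its counts, its TMM factor was 0.559 against 0.967 to 1.11 in the others, and its log2 levels correlated with the other 10 mM libraries at r = 0.840 to 0.866, whereas other pairs within a group reached at least 0.977. The other 16 libraries fell into 2 sets that lie close together, which the labels do not name as batches. The first set holds control libraries 1 to 3, 10 mM libraries 2 to 4 and 16 mM libraries 1 to 3, and the second the rest apart from 10 mM library 1. Of the epithelial markers, KRT7, KRT8, KRT17 and KRT18 were detected, while KRT5, KRT19, EPCAM and CDH1 did not exceed 0.12 FPKM in any library. The summed level of 8 fibroblast markers was 34.3 to 52.7 FPKM in control, 26.5 to 36.0 FPKM at 10 mM and 21.2 to 26.5 FPKM at 16 mM, with COL1A2 at or below 0.01 FPKM. Summed immune markers (CD14, CD3E and PTPRC) reached 1.37 FPKM and endothelial markers 0.07 FPKM. The part of these markers in the changes below was not tested.

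The promoters of SNRPA, SNRPA1 and EIF4A3 are printed because these members had the largest called fall and the 2 largest rises at 16 mM. Each window holds the 250 bases before the RefSeq gene start (GRCh38.p14), 5′ to 3′, with matches to the motifs named after them in capitals. The windows are chr19:40750953-40751202 (plus strand) for SNRPA, chr15:101295249-101295498 (minus strand) for SNRPA1 and chr17:80147129-80147378 (minus strand) for EIF4A3.
SNRPA: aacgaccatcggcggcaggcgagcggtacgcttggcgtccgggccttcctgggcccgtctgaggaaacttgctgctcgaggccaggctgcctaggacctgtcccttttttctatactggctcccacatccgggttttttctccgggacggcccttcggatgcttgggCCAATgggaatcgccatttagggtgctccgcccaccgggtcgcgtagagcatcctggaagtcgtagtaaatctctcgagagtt
SNRPA1: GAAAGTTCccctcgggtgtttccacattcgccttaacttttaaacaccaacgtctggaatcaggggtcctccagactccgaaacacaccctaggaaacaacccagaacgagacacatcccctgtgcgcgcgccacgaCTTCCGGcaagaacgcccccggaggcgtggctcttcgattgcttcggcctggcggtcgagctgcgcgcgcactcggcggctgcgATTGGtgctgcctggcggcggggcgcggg
EIF4A3: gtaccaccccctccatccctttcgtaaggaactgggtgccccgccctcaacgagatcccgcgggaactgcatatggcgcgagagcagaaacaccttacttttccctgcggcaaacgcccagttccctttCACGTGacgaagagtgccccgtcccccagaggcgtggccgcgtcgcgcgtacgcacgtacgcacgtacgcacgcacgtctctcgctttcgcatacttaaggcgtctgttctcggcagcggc
The SNRPA window holds a CCAAT box, the SNRPA1 window a CCAAT box, an ETS site and a heat shock pair, and the EIF4A3 window an E-box.

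RefSeq windows were found for 108 of the 126 members and for 10184 tested genes, and 8 motifs were searched on both strands, each on its own, so that matches can share letters. The ETS site CCGGAAG stood in the windows of 50 members (46.3%), against 19.1% of the tested genes and 8.52% of all 35116 windows. Among members that rose at 16 mM it stood in 12 of 22 windows, and among those that fell in 1 of 6. The CCAAT box (CCAAT) stood in 41.7% of the members' windows and in 41.7% of those of tested genes (32.0% of all windows). The other 6 motifs had these shares: the E-box CACGTG in 8.33% of members, 11.3% of tested genes and 6.34% of all windows, the NRF1 core TGCGCA in 17.6%, 13.7% and 6.89%, the CREB/ATF site TGACGTCA in 2.78%, 3.43% and 1.65%, the ATF4 site TGATGCAA in 0.926%, 0.638% and 0.772%, the heat shock pair GAANNTTC in 7.41%, 5.84% and 5.78%, and the antioxidant response core TGACNNNGC in 14.8%, 15.8% and 10.9%. In the same 22 and 6 windows the CCAAT box stood in 11 and 3, and the antioxidant response core in 5 and 1. The E-box and the NRF1 core each stood in 4 and 1, the heat shock pair in 1 and 0, and the CREB/ATF and ATF4 sites in 0 and 0. No share over all genes that rose or fell stands beside these splits, so no link with direction is read from them. These shares are descriptions of letters in the windows and were not tested.

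At 16 mM more members were higher than lower. A gene was counted as higher or lower when its p from the quasi-likelihood test of edgeR, adjusted by Benjamini-Hochberg over all 12564 tested genes, was under 0.05. Of 125 tested members, 26 rose and 7 fell (20.8% and 5.6%), against 17.3% higher and 18.1% lower over all genes. The median log2 change of the members was 0.14, and that of all tested genes 0.00. Without 10 mM library 1, whose spread enters the shared fit, 58 members rose and 21 fell, against 33.7% higher and 32.2% lower of 12545 genes. All 26 rises and all 7 falls were among these.

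**Figure D1:**
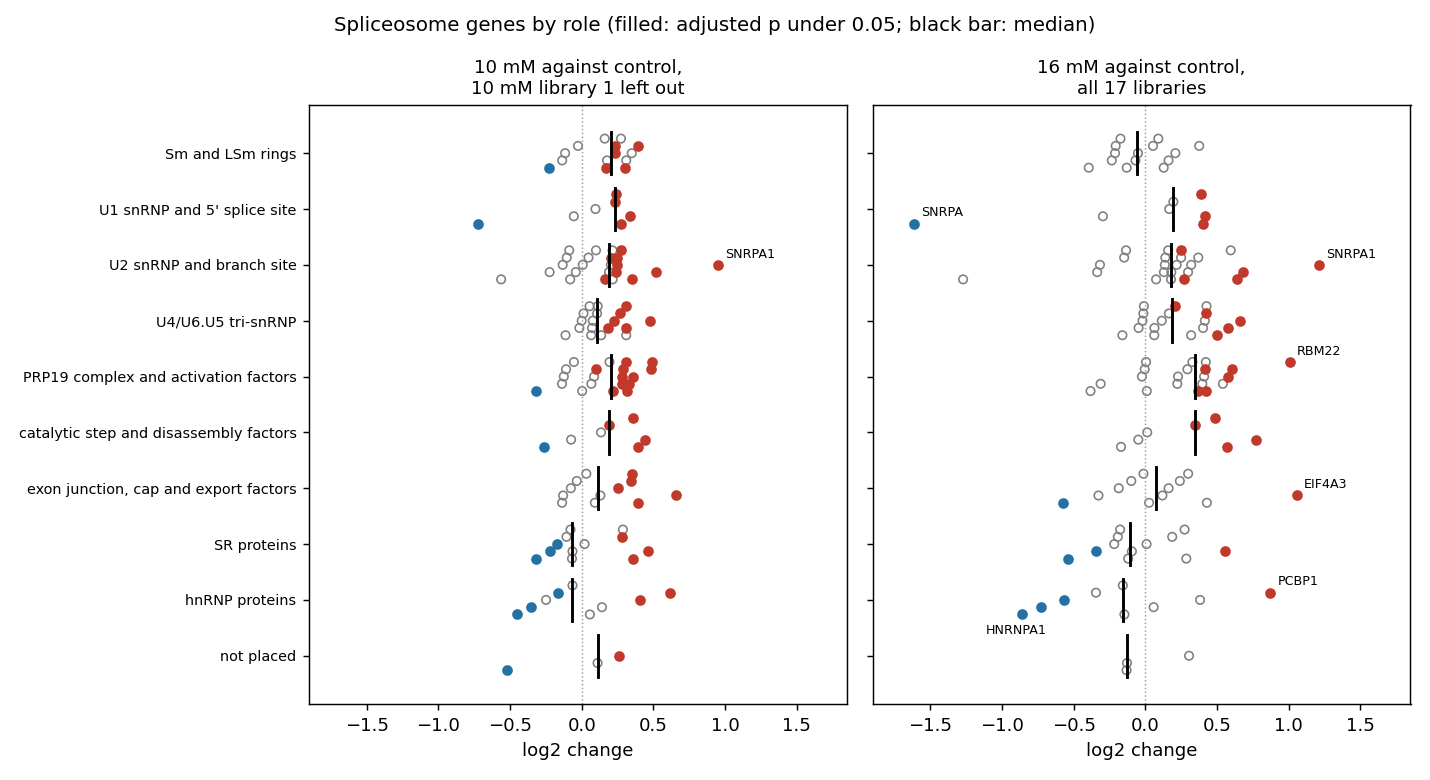
Log2 change of each tested spliceosome gene (1 point a gene) by role, at 10 mM without 10 mM library 1 (left) and at 16 mM over all 17 libraries (right); filled points passed the test and black bars are medians. At 16 mM the medians of the SR and hnRNP proteins lie at -0.11 and -0.16 and that of the PRP19 complex and activation factors at 0.35.

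SNRPA encodes the A protein of the U1 snRNP, which binds a stem-loop of U1 RNA, and it had the largest fall of all members with a called change. The gene spans chr19:40751203-40765389 in the deposited table (GRCh38). Its level was 109 to 133 FPKM in control (median 119 FPKM), 171 FPKM in 10 mM library 1 and 50.6, 58.0, 83.9, 84.7 and 85.9 FPKM in the other 10 mM libraries. At 16 mM the 5 libraries read 37.3, 39.6, 39.5, 38.2 and 39.6 FPKM. The 16 mM libraries therefore lie below every other library, and 10 mM library 1 lies above all of them. The log2 change at 16 mM was -1.61 ± 0.37 (SE, adjusted p = 0.00288), 3.06-fold lower, and it was -1.76 in the first set and -1.46 in the second. At 10 mM the change was -0.07 ± 0.34 (adjusted p = 0.91) with all libraries and -0.73 ± 0.11 (adjusted p = 4e-05) without library 1.

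SNRPA was the only called fall in the U1 role with all libraries. SNRNP70, the U1-70K protein, rose from 148 ± 9.4 FPKM (n = 6) to 196 ± 7.5 FPKM (n = 5) at 16 mM, with a log2 change of 0.42 ± 0.12 (adjusted p = 0.011). RBM25, an RNA-binding protein that acts with U1, rose by 0.40 ± 0.14. SNRPC, the C protein of U1, had a log2 change of 0.17 ± 0.41 (adjusted p = 0.79). PRPF40B, a U1-associated protein, had -0.30 ± 0.18 (adjusted p = 0.22), and it was called lower without 10 mM library 1 (-0.29 ± 0.09, adjusted p = 0.0112) and in each set alone (-0.23 and -0.47). Over all genes 29.1% were called lower in both sets, so the calls in each set alone say little by themselves. Of the 7 genes of this role 3 rose and 1 fell at 16 mM (42.9% and 14.3%), against 17.3% and 18.1% of all genes. Without 10 mM library 1 the count was 4 and 2 (57.1% and 28.6%), against 33.7% and 32.2% of all genes. The call of RBM25 was lost without 16 mM library 4 or 5 or control library 3, 4, 5 or 6 (adjusted p = 0.0536 to 0.0911).

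SNRPA1 encodes the A′ protein of the U2 snRNP, which pairs with the B″ protein on U2 RNA. Its level was 66.0 to 74.0 FPKM in control (median 70.1 FPKM), 155 FPKM in 10 mM library 1 and 117, 121, 123, 157 and 159 FPKM in the others at 10 mM. At 16 mM it was 174, 163, 167, 153 and 156 FPKM. Every exposed library lies above every control, and the 10 mM libraries of the second set reach the 16 mM level. The log2 change was 1.21 ± 0.19 at 16 mM (adjusted p = 0.000139), a 2.32-fold rise, and 1.21 ± 0.19 at 10 mM (adjusted p = 0.000332). The equal value at 10 mM depends on the libraries used. It was 0.74 in the first set and 1.21 in the second, which both leave out 10 mM library 1. Over fits with 1 library left out in turn it ran from 0.95 to 1.29. SNRPB2, which encodes the B″ protein, had a log2 change of 0.18 ± 0.35 at 16 mM (adjusted p = 0.73), and 0.19 ± 0.08 (adjusted p = 0.0491) without 10 mM library 1.

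Within the U2 group 5 of 23 genes rose at 16 mM (21.7%) and 0 fell, against 17.3% and 18.1% of all genes. With 10 mM library 1 left out, 15 rose and 3 fell (65.2% and 13.0%), against 33.7% and 32.2% of all genes. SF3A1, a subunit of SF3A, rose from 30.2 ± 2.1 to 46.7 ± 1.2 FPKM (log2 change 0.64 ± 0.10, adjusted p = 8.3e-05). CHERP rose by 0.68 ± 0.10 and U2SURP by 0.25 ± 0.09, both U2-associated proteins, and SMNDC1 rose by 0.27 ± 0.07. The call of U2SURP was lost without 16 mM library 3, 4 or 5 or control library 1, 2, 3 or 6 (adjusted p = 0.05 to 0.0829). SF3B1, the branch-site subunit of SF3B, had a log2 change of 0.08 ± 0.11 (adjusted p = 0.64), with 0.34 in the first set and -0.24 in the second. U2AF2, which binds the polypyrimidine tract, had 0.18 ± 0.16 at 16 mM (adjusted p = 0.43), and 0.19 ± 0.06 (adjusted p = 0.0155) without 10 mM library 1.

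U2AF1, the small U2AF subunit at the 3′ splice site, is hard to read on its own. U2AF1 and U2AF1L5 are near-identical copies: 93.3% of the 50-base stretches of U2AF1 transcripts occur in U2AF1L5 transcripts (GENCODE v29). The share of U2AF1 in the summed level ran from 34.0% to 71.2% between libraries, with the highest in control library 4. The sum was 243 to 305 FPKM in control, 225 to 273 FPKM in 10 mM libraries 2 to 6, 499 FPKM in 10 mM library 1 and 214 to 254 FPKM at 16 mM. The control and 16 mM ranges overlap, and the sum was not tested.

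**Figure D2:**
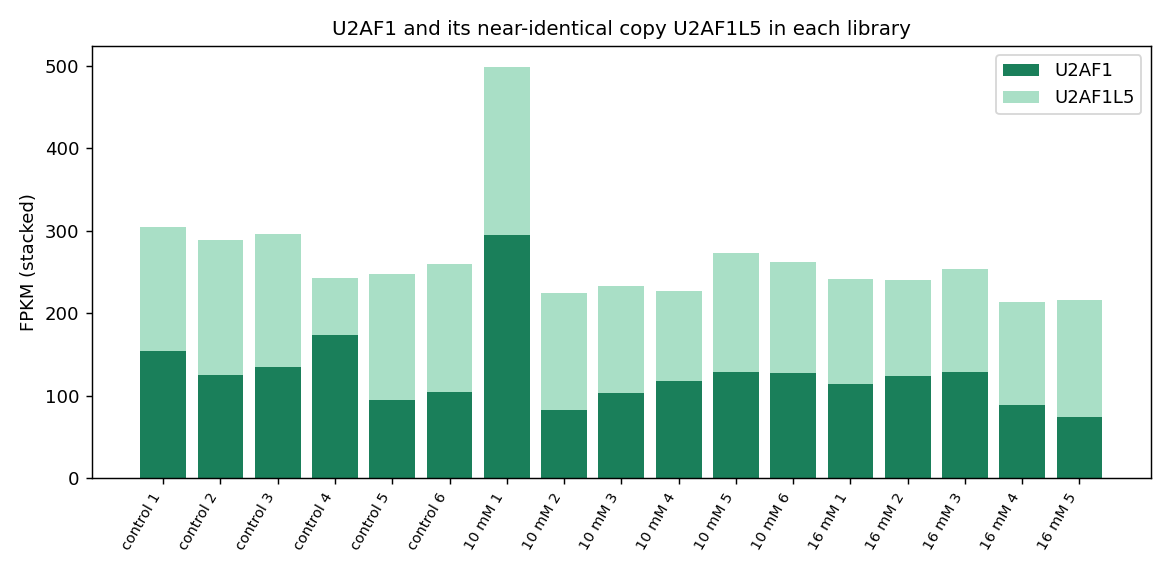
Level of U2AF1 (dark) and U2AF1L5 (light) in each library, in FPKM, stacked so that the bar height is their sum. The split between the copies varies, with U2AF1 at 71.2% of the sum in control library 4, and 10 mM library 1 has the highest sum (499 FPKM).

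The tri-snRNP genes had 5 of 18 rises (27.8%) and 0 falls at 16 mM, against 17.3% and 18.1% of all genes. With 10 mM library 1 left out, there were 10 rises (55.6%) and 0 falls, against 33.7% and 32.2% of all genes. PRPF6, which bridges the U5 and U4/U6 particles, rose from 48.5 ± 3.2 to 72.0 ± 1.5 FPKM (log2 change 0.58 ± 0.14, adjusted p = 0.0048). PRPF4 and PRPF3, proteins of the U4/U6 particle, rose by 0.66 ± 0.22 and 0.42 ± 0.13, and DDX23, a helicase that releases U1, rose by 0.50 ± 0.11. The largest U5 proteins did not pass: PRPF8 had a log2 change of 0.12 ± 0.13 and SNRNP200, the helicase that unwinds U4/U6, had -0.16 ± 0.11. PRPF38B rose by 0.21 ± 0.08, a call lost without 10 mM library 2, 3, 5 or 6, 16 mM library 1, 2 or 3 or any control library (adjusted p = 0.0556 to 0.112). The call of PRPF4 was lost without 16 mM library 4 or 5 or control library 1, 2 or 3 (adjusted p = 0.0524 to 0.0776). PRPF8 had a log2 change of 0.36 in the first set and -0.16 in the second.

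Of the PRP19 complex and activation factors 6 of 20 rose at 16 mM (30%) and 0 fell, against 17.3% and 18.1% of all genes. With 10 mM library 1 left out, 14 rose and 2 fell (70% and 10%), against 33.7% and 32.2% of all genes. RBM22, which contacts U6 RNA near the catalytic core, had 46.5 to 51.1 FPKM in control (median 47.9 FPKM), 75.4 FPKM in 10 mM library 1 and 67.1, 65.7, 66.8, 70.8 and 68.1 FPKM in the others at 10 mM. At 16 mM it had 87.4, 92.9, 91.6, 105 and 102 FPKM. The 3 groups do not overlap. The log2 change was 1.01 ± 0.18 at 16 mM (adjusted p = 0.00033) and 0.73 ± 0.17 at 10 mM (adjusted p = 0.00701). The sets alone, which leave out 10 mM library 1, gave 0.44 (first) and 0.56 (second) at 10 mM. CDC5L (0.58 ± 0.07), XAB2 (0.60 ± 0.21), WBP11 (0.42 ± 0.11), CRNKL1 (0.43 ± 0.11) and AQR (0.37 ± 0.13) were the other rises, and all 5 are components or partners of this activation machinery. The call of XAB2 was lost without 16 mM library 2, 4 or 5 or control library 1, 2 or 3 (adjusted p = 0.0567 to 0.0696), and that of AQR without 16 mM library 2, 3, 4 or 5 or control library 1, 2 or 3 (adjusted p = 0.0518 to 0.076).

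In the catalytic step and disassembly group 4 of 7 genes rose at 16 mM (57.1%), against 17.3% of all genes. With 10 mM library 1 left out, the count of rises was again 4 (57.1%), against 33.7% of all genes. SLU7, which acts in the second step, rose from 24.0 ± 1.3 to 40.4 ± 3.2 FPKM (0.77 ± 0.18, adjusted p = 0.00365). DDX5, an abundant RNA helicase, rose from 223 ± 10 to 328 ± 14 FPKM (0.57 ± 0.13), DHX8, which releases the spliced RNA, by 0.49 ± 0.12 and DHX38 by 0.35 ± 0.10. DHX15, which takes the spliceosome apart, had 0.01 ± 0.15 (adjusted p = 0.96), with 0.29 in the first set and -0.30 in the second.

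EIF4A3, the ATPase at the core of the exon junction complex, had 56.6 to 97.3 FPKM in control (median 75.2 FPKM), 232 FPKM in 10 mM library 1 and 113, 116, 117, 134 and 135 FPKM in the others at 10 mM. At 16 mM it had 143, 153, 152, 171 and 170 FPKM. The control libraries of the first set (56.6 to 69.1 FPKM) lie below those of the second (81.3 to 97.3 FPKM), yet every exposed library lies above all controls. The log2 change was 1.06 ± 0.32 at 16 mM (adjusted p = 0.015) and 1.13 ± 0.30 at 10 mM (adjusted p = 0.0164), and 0.66 ± 0.15 at 10 mM without library 1. In the same role DDX39B, a helicase of messenger RNA export, fell from 186 ± 17 to 122 ± 28 FPKM (-0.58 ± 0.20, adjusted p = 0.036), with -0.46 in the first set and -0.84 in the second. Its call was lost when 16 mM library 4 (adjusted p = 0.0973) or 5 (0.0982), or any control library (adjusted p = 0.051 to 0.0608), was left out.

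MAGOH and MAGOHB, which encode 2 nearly alike exon junction proteins, are shown because their counts can be separated although their coding sequences are close. Of the 438 coding bases aligned without gaps from the stop codon, 379 (86.5%) are the same, and no 50-base stretch is shared. The last 120 coding bases before the stop codon follow (GENCODE v29, GRCh38, both genes on the minus strand, on chromosomes 1 and 12), with the 16 differences in capitals.
MAGOH: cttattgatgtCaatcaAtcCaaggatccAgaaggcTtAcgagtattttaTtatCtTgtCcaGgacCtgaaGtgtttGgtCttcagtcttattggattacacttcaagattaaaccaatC
MAGOHB: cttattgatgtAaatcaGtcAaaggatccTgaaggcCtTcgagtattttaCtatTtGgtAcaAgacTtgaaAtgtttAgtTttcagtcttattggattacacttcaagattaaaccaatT
MAGOH was 81.7 ± 2.6 FPKM in control and 96.7 ± 4.4 FPKM at 16 mM (0.24 ± 0.37, adjusted p = 0.66), and MAGOHB 11.8 ± 2.0 and 8.97 ± 1.4 FPKM (-0.33 ± 0.31, adjusted p = 0.46). Without 10 mM library 1 MAGOH rose by 0.25 ± 0.09 (adjusted p = 0.0277) and MAGOHB fell by 0.32 on the log2 scale (adjusted p = 0.00661).

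Among the SR proteins 1 of 12 genes rose and 2 fell at 16 mM (8.33% and 16.7%). Over all genes 17.3% rose and 18.1% fell, so the share of falls was near that of all genes. With 10 mM library 1 left out, 2 rose and 3 fell (16.7% and 25%), against 33.7% and 32.2% of all genes. SRSF1 fell from 96.8 to 105 FPKM in control to 76.7, 76.2, 77.5, 56.0 and 58.3 FPKM at 16 mM, a log2 change of -0.54 ± 0.11 (adjusted p = 0.00163), and -0.41 and -0.74 within the first and second set. SRSF10 fell by 0.34 on the log2 scale at 16 mM (adjusted p = 0.00532). SRSF6 rose from 67.6 ± 3.5 to 98.1 ± 13 FPKM (0.56 ± 0.13, adjusted p = 0.0038). SRSF2 (0.19 ± 0.15), SRSF3 (0.27 ± 0.17), TRA2A (-0.22 ± 0.13) and TRA2B (-0.12 ± 0.22) did not pass with all libraries. TRA2A was called lower without 10 mM library 1 (-0.21 ± 0.05, adjusted p = 0.00144) and in each set alone (-0.17 and -0.28), and SRSF3 was called higher in each set alone (0.41 and 0.11). Over all genes 29.1% were called lower and 28% higher in both sets, so the calls in each set alone say little by themselves.

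Among the hnRNP proteins 1 of 9 genes rose and 3 fell at 16 mM (11.1% and 33.3%), against 17.3% and 18.1% of all genes. With 10 mM library 1 left out, 2 rose and 5 fell (22.2% and 55.6%), against 33.7% and 32.2% of all genes. HNRNPA1, an abundant splicing repressor, had 479 to 643 FPKM in control (median 590 FPKM), 780 FPKM in 10 mM library 1, 430 to 566 FPKM in the others at 10 mM and 309, 292, 310, 331 and 321 FPKM at 16 mM. The 16 mM libraries lie below every other library. Its log2 change at 16 mM was -0.86 ± 0.29 (adjusted p = 0.0285), and -0.76 and -0.91 within the sets. The call was lost when 16 mM library 1, 2, 3 or 5 or control library 4, 5 or 6 was left out (adjusted p = 0.0504 to 0.0626), and reads can be shared with HNRNPA1L2, which holds 12.8% of its 50-base stretches.

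RBMX, an RNA-binding protein of the hnRNP G family, fell from 195 ± 12 to 118 ± 17 FPKM (-0.72 ± 0.22, adjusted p = 0.0146). Reads of RBMX can be shared with RBMXL1, which holds 11.8% of its 50-base stretches. HNRNPA3 fell from a control level of 150 ± 4.8 FPKM with a log2 change of -0.57 ± 0.12 (adjusted p = 0.00201). PCBP1, a poly(C)-binding protein, was the rise: it had 66.8 to 114 FPKM in control, 193 FPKM in 10 mM library 1 and 126 to 152 FPKM in the others at 10 mM, and 151 to 176 FPKM at 16 mM. Its log2 change was 0.87 ± 0.27 (adjusted p = 0.0176), and HNRNPM had 0.38 ± 0.20 (adjusted p = 0.16). HNRNPM was called higher without 10 mM library 1 (0.39 ± 0.14, adjusted p = 0.0187), with libraries summed per set (0.42 ± 0.11, adjusted p = 0.0152) and in each set alone (0.48 and 0.37). Over all genes 28% were called higher in both sets, so the calls in each set alone say little by themselves.

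**Figure D3:**
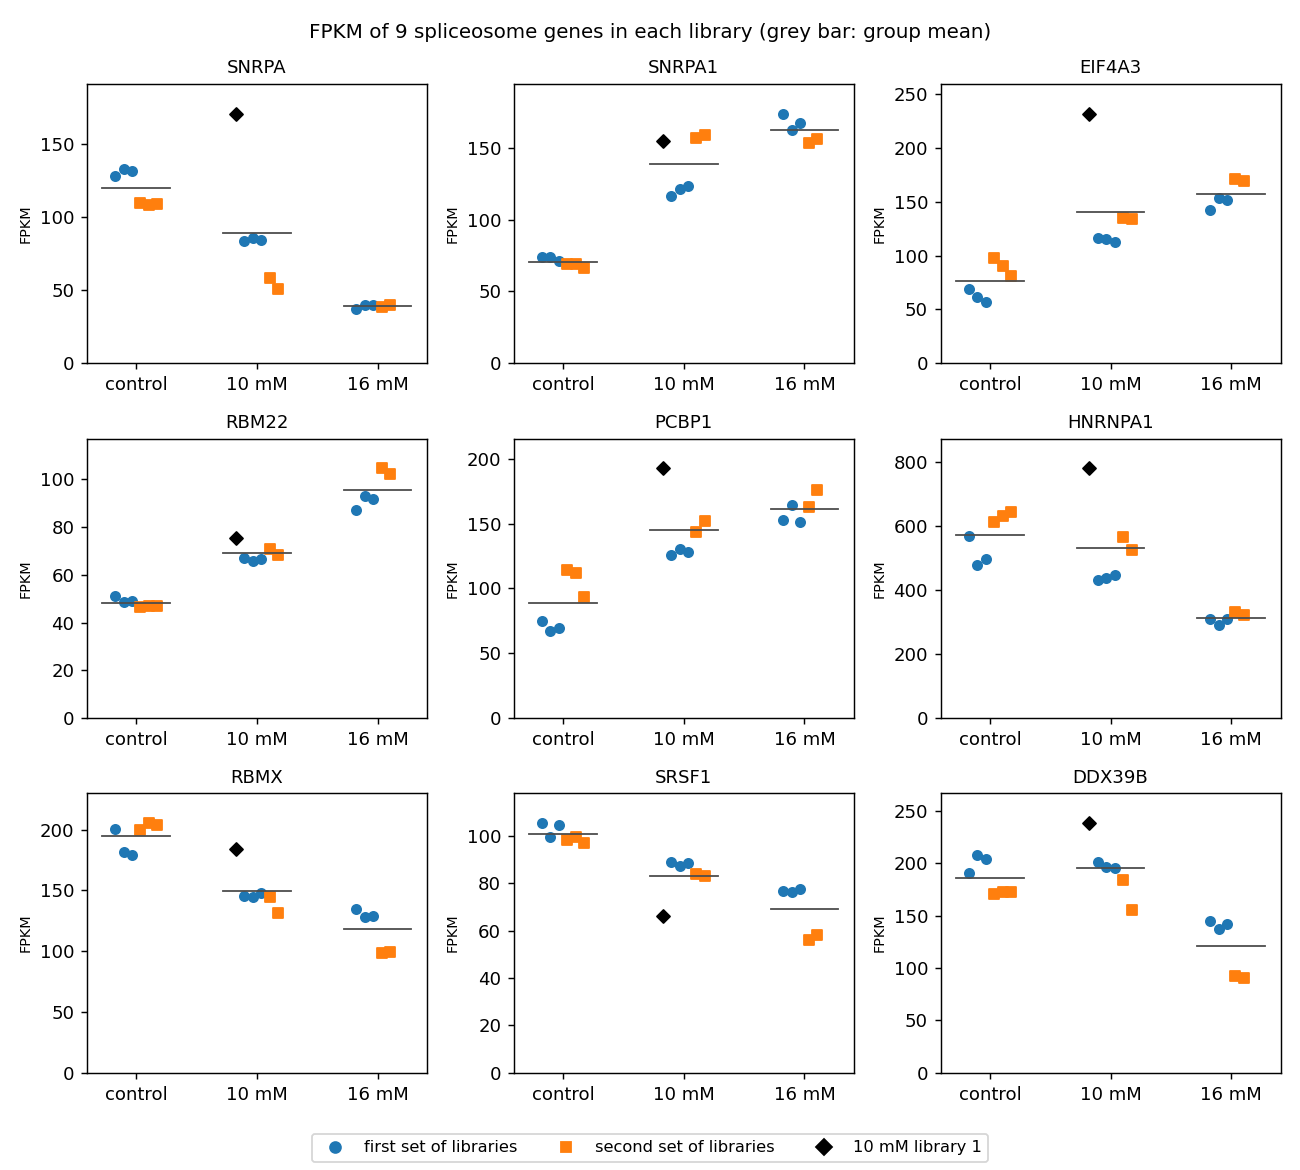
FPKM of 9 spliceosome genes in each library, with the first set of libraries as circles, the second as squares, 10 mM library 1 as a diamond and the group mean as a grey bar. At 16 mM the SNRPA libraries lie between 37.3 and 39.6 FPKM, below the control range of 109 to 133 FPKM, and those of SNRPA1 between 153 and 174 FPKM, above 66.0 to 74.0 FPKM.

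Among the 9 roles only the Sm and LSm genes had no called member at 16 mM. There 0 of 14 rose and 0 fell, against 17.3% and 18.1% of all genes, with a median log2 change of -0.06. SNRPD2 had 0.09 ± 0.46 and SNRPB 0.13 ± 0.27. Without 10 mM library 1, 1 gene rose and 4 fell (7.14% and 28.6%), against 33.7% and 32.2% of all genes. The unplaced members RP9 and ISY1-RAB43 had log2 changes of -0.13 ± 0.52 and 0.31 ± 0.15 and did not pass. ISY1-RAB43 was called higher without 10 mM library 1 (0.31 ± 0.06, adjusted p = 0.000282). Its reads can be shared with ISY1, which holds 17.9% of its 50-base stretches.

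At 10 mM rises prevailed as well. Of 125 tested members 20 rose and 1 fell (SRSF10), against 9.41% higher and 9.3% lower over all genes, and the median log2 change of members was 0.37 against 0.05. Without 10 mM library 1 the counts were 50 and 11, against 22.4% higher and 22.8% lower, and the medians 0.14 and 0.00. On the FPKM scale 37.2% of all genes called at 10 mM were higher, compared with 50.3% by edgeR. The counts of members called also differed by more than 1.5 times from 21 without 10 mM library 2 (34), 3 (32) or 4 (34), and without control library 1, 2, 3 or 6 (10, 10, 10 and 13). Of all genes, 19.5%, 19.2% and 19.5% were called without these 10 mM libraries, against 18.7% with all libraries. Without these control libraries the share was 13.2%, 13%, 13.3% and 14.6%.

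By role, the 10 mM rises were 1 of 14 Sm and LSm, 1 of 7 U1, 3 of 23 U2 and 2 of 18 tri-snRNP genes. They were 5 of 20 PRP19, 2 of 7 catalytic, 4 of 12 exon junction and export, 0 of 12 SR and 2 of 9 hnRNP genes. Over all genes 9.41% rose, and the shares of the Sm and LSm (7.14%), tri-snRNP (11.1%) and U2 genes (13.0%) lay near that. SF3A1 rose by 0.56 ± 0.09 (adjusted p = 0.000622), CDC5L by 0.47 ± 0.06 (adjusted p = 9.5e-05) and PRPF6 by 0.63 ± 0.14 (adjusted p = 0.0048). RBM8A, the partner of MAGOH, rose by 0.73 ± 0.23 (0.35 ± 0.07 without library 1), and MAGOH itself by 1.10 ± 0.36 (adjusted p = 0.0426), which was 0.39 ± 0.09 without library 1. SNRPE, an Sm protein, rose by 1.15 ± 0.39 with all libraries (adjusted p = 0.0497) and by 0.39 ± 0.14 without library 1. The call was lost for RBM8A without 16 mM library 2 or 3 or any control library (adjusted p = 0.0502 to 0.0809), for MAGOH without any 1 of the 16 mM or control libraries (adjusted p = 0.0519 to 0.0836), and for SNRPE without 10 mM library 5 or any 1 of the 16 mM or control libraries (adjusted p = 0.0573 to 0.105). Further 10 mM rises lost their call without single libraries. These were DDX5 (in 16 of 17 omissions), U2AF2 (12), HNRNPM (9), THOC3 (6), SNRNP70 (4), XAB2 (4), DDX23 (3) and WBP11 (3). The counts by role above rest in part on these calls. The 10 mM and 16 mM comparisons share the control libraries. SRSF10 fell from 83.0 ± 9.8 FPKM in control to 65.5 ± 4.1 FPKM in 10 mM libraries 2 to 6 and 35.1 FPKM in library 1.

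Directly between the doses, 3 members were higher at 16 mM and 7 lower, against 6.69% higher and 7.46% lower over all genes. On the FPKM scale 60.8% of all called genes were higher at 16 mM in this comparison and 47.3% by edgeR. The rises included CHERP (0.48 ± 0.10) and SMNDC1 (0.25 ± 0.07). The falls were SNRPA (-1.55 ± 0.37), HNRNPA1 (-1.03 ± 0.29), MAGOHB (-0.996 ± 0.32), DDX39B (-0.87 ± 0.20), HNRNPA3 (-0.72 ± 0.13), CCDC12 (-0.43 ± 0.13) and SRSF1 (-0.41 ± 0.11). Without 10 mM library 1, 26 members were higher and 20 lower, against 23.2% and 20.9%. The falls of SNRPA, HNRNPA1 and MAGOHB were then smaller, at -0.88 ± 0.11, -0.60 ± 0.12 and -0.45 ± 0.10, and those of DDX39B and HNRNPA3 were -0.60 ± 0.10 and -0.62 ± 0.07. Without 16 mM library 4 or 5, 4 members were called in each case, with 6.4% and 6.67% of all genes called, against 14.1% with all libraries. Calls lost without 16 mM library 4 or 5 were those of SMNDC1 (adjusted p = 0.0645 and 0.0554), SRSF1 (0.0884 and 0.085) and CCDC12 (0.0997 and 0.0945), the last also without 10 mM library 3 (0.0552) or 5 (0.0624). That of HNRNPA1 was lost without any 1 of the 16 mM libraries (adjusted p = 0.0524 to 0.0627), and that of MAGOHB without any 1 of the 16 mM or control libraries (adjusted p = 0.057 to 0.114).

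Across the 3 groups without 10 mM library 1, 8 tested members (6.4%) stepped up with dose without overlap between groups: SLU7, DHX8, CHERP, DDX23, EIF4A3, XAB2, RBM22 and DHX38. SNRPA and SRSF1 (1.6%) stepped down. Over all tested genes 4.87% stepped up and 4.27% down.

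Library 1 of the 10 mM group differed from the other 10 mM libraries by transcript length. On the log2 CPM scale after TMM, 99 of 125 members were higher in it, with a median difference of 1.17 for members and -0.12 for all tested genes. The effective length is the length a count and an FPKM value imply. Members under 500 bases (10 genes) had a median difference of 2.44, and the 24 over 4000 bases -0.20. Over all genes these medians were 2.43 for 366 genes under 500 bases and -1.14 for 3937 genes over 4000 bases. Between these lengths members lay above all genes: 2.25 against 1.73 at 500 to 1000 bases, 1.48 against 0.91 at 1000 to 2000 and 0.94 against -0.15 at 2000 to 4000. Across the 125 members the difference and the log2 length correlated at r = -0.64 (Spearman's rho -0.68), a description of 1 library against 5. Over all 12564 tested genes the correlation was nearly the same (r = -0.62, rho -0.63).

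SNRPD2, an Sm protein with an effective length of 193 bases, had 1664 FPKM in this library and 480 to 631 FPKM in the other 10 mM libraries. RP9 had 98.2 FPKM, the largest excess (8.50-fold on the log2 CPM scale). SRSF5 had 31.3 FPKM, while the other 10 mM libraries had 228 ± 3.6 FPKM, the largest deficit. 

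**Figure D4:**
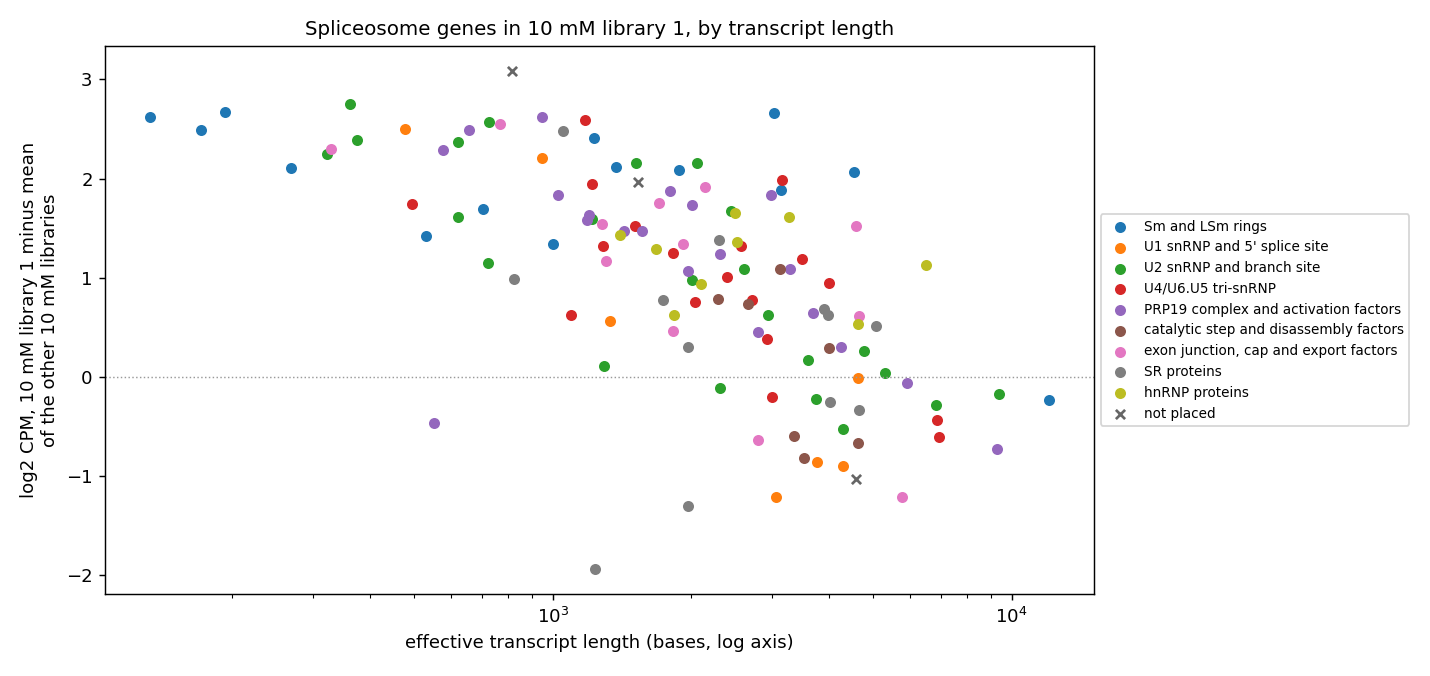
Log2 CPM of 125 spliceosome genes in 10 mM library 1 minus the mean of the other 10 mM libraries, against effective transcript length in bases on a log axis, with colours for roles. Members under 500 bases have a median difference of 2.44, and those over 4000 bases of -0.20.

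Each set of libraries was also fitted alone. At 16 mM 96 of 125 members (76.8%) had the same sign in both sets, and over 12431 genes 80.3% did. In the first set 68 members rose and 29 fell, against 35.5% higher and 36.4% lower of 12613 genes, and in the second 62 and 36, against 38.6% and 39.5% of 12528 genes. In both sets at once 53 members (42.4%) were higher, against 28% of 12433 genes, and 22 (17.6%) were lower, against 29.1%. A further 7 members (5.6%), against 4.43% of genes, were called in opposite directions: ALYREF, CDC40, DHX15, PRPF8, RP9, SF3B1 and SF3B3. SF3B3, another SF3B subunit, had 0.60 ± 0.05 in the first set and -0.18 ± 0.06 in the second. At 10 mM 97 of 125 members (77.6%) and 71.9% of genes had the same sign.

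**Figure D5:**
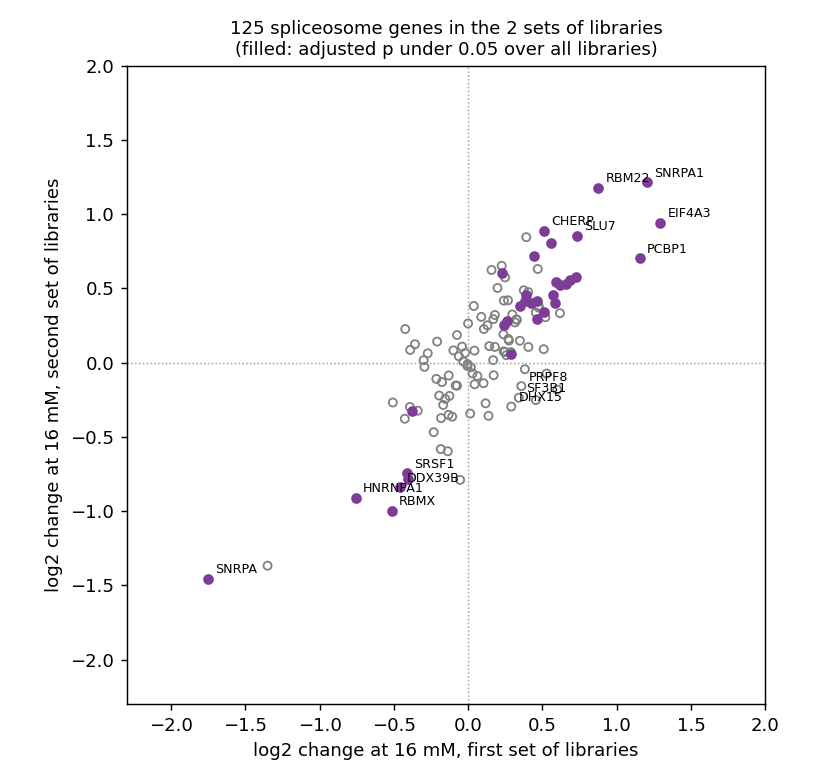
Log2 change at 16 mM against control of each of 125 spliceosome genes in the first set of libraries (x axis) and the second (y axis), with genes called over all libraries filled. The filled points lie either below 0 on both axes or above 0 on both, and SF3B1, PRPF8 and DHX15 lie right of 0 and below 0.

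Summing the libraries of each set and group, so that each set counts once, left 6 sums and 2 residual degrees of freedom. At 16 mM 38 members rose and 9 fell, against 20% higher and 22.5% lower of 13465 genes. At 10 mM 12 rose and 1 fell, against 5.3% and 7.02%. The single fall at 10 mM was SNRPA. Between the doses 2 were higher and 4 lower, against 1.88% and 3.48%.

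Genes that serve the spliceosome without being members were taken from 4 further lists, whose counts stand beside the 17.3% of all genes higher and 18.1% lower at 16 mM. Of 15 snRNP assembly genes 6 rose and 0 fell at 16 mM, with a median log2 change of 0.50. GEMIN4, a subunit of the SMN complex that loads Sm rings, rose from 16.1 ± 1.2 to 32.1 ± 7.1 FPKM (1.02 ± 0.17, adjusted p = 0.000165), DDX20 of the same complex by 0.79 ± 0.14 and COIL, the coilin of Cajal bodies, by 0.50 ± 0.08. Of 13 minor spliceosome genes 3 rose and 1 fell: CENATAC rose by 0.69 ± 0.12 and SNRNP35 fell by 0.56 on the log2 scale. Of 7 SR protein kinases 1 rose, SRPK1 (0.38 ± 0.08, adjusted p = 0.0022), a share near that of all genes.

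Of the 27 tested alternative splicing regulators 2 rose and 3 fell at 16 mM. CELF2 fell from 2.2 ± 0.28 to 0.57 ± 0.20 FPKM (-1.96 ± 0.22), HNRNPD from 167 ± 6.1 to 90.7 ± 23 FPKM (-0.89 ± 0.25) and HNRNPA2B1 from 656 ± 88 to 463 ± 9.1 FPKM (-0.49 ± 0.18). The nuclear speckle proteins SON and SRRM1 each rose by 0.57 on the log2 scale (adjusted p = 0.0072 and 0.0031). Without 10 mM library 1 the counts were 9 and 11, near the 33.7% and 32.2% of all genes.

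By a q-value under 0.05 in the authors' deposited table, 58 members were higher and 22 lower at 16 mM, against 25.0% and 25.4% of all genes with a q-value. At 10 mM the authors' deposited table holds 15 higher and 1 lower member, against 7.74% and 7.68% of all genes.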

How the data were processed

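Messenger RNA of BEAS-2B cells was measured in 17 libraries in 3 groups taken from the sample titles. Per the labels' protocols, poly-A RNA was captured, fragmented and reverse transcribed from random primers; strandedness is not stated there. Per the submitters' processing notes, HISAT, Bowtie2 2.3.4.3, RSEM 1.3.1, DESeq2 1.4.5 and GRCh38.p13 are named, without roles. The deposited read counts are expected counts per the file headers and values, since 13.1% are not whole. The deposited FPKM and TPM values are named so per the file headers, and TPM was not used. The log2 fold changes and p-values or q-values of the authors' deposited table were used only where it is named. All per-sample columns were matched, with 0 left over.

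Counts were rounded and tested with edgeR 4.0.16 (R 4.3.3; TMM, filterByExpr, quasi-likelihood, 1 fit over 17 libraries with 14 residual degrees of freedom, two-sided, Benjamini-Hochberg over all genes tested). SE equals |log2 change| over the root of the F statistic. Levels are FPKM, mean ± SD. Alternatives were a replicate block, DESeq2 size factors, no filter, the DESeq2 1.42.0 Wald test, limma 3.58.1 on log2(FPKM + 1) for genes reaching 1 FPKM in 5 or more libraries, fits limited to the 2 groups at hand, and omission of each library. Fits by set of libraries were added after the data were seen. Within groups, the chi-square per gene (genes with at least 100 counts) was 1.76 or more for each pair, above sampling noise, so no libraries were merged as copies. The code was tested on simulated data.

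Named genes per comparison are up to 8 called members with the largest rise and 8 with the largest fall (at least 5 FPKM in the higher group), up to 3 called genes per role or further list by p (the 1 with the smallest p where a role had none), and the genes SF3B1, U2AF1, U2AF2, PRPF8, SNRNP200, SNRNP70, SRSF1, SRSF2, SRSF3, TRA2A, TRA2B, HNRNPA1, MAGOH, MAGOHB, DHX15 and DDX39B. Genes named beside them were chosen after their values were seen: members of a described role, genes that stepped with dose, opposite between sets, or extreme in 10 mM library 1. The members and lists were chosen with earlier results of these data known. Coordinates are from the deposited table where they match GENCODE v29. Some members are not reported by name here.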

Additional observations from a re-analysis of the deposited data

Results flagged for a closer look

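A level was picked out when the highest or lowest library of a group lay far from the nearest other, by Dixon's criterion at the 95% level, which chance meets in about 1 in 20 groups. Of 57 groups examined (3 groups for each of 9 role sums, 1 pair sum and 9 genes) 13 met it, and in all 13 the library was 10 mM library 1. Summed FPKM in that library was 5159 for the Sm and LSm rings, 858.4 for the U1 role, 2948 for the U2 role, 1288 for the tri-snRNP role, 1671 for the PRP19 role, 1541 for the exon junction, cap and export role and 2493 for the hnRNP proteins, each above the other 10 mM libraries. The sum of the catalytic step and disassembly role was 275.7 FPKM, below the others. U2AF1 and U2AF1L5 together had 499.3 FPKM, SNRPA 171.1 FPKM, EIF4A3 232.1 FPKM and RBMX 184.2 FPKM, each the highest at 10 mM, and SRSF1 had 66.12 FPKM, the lowest. On the log2 CPM scale after TMM, SRSF1 in that library lay 0.51 above the mean of the other 10 mM libraries. The 2 scales thus differ in direction for SRSF1, and its low FPKM there is not read as a fall.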

How the results depend on the processing

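The fit of all libraries called 21 members at 10 mM, 33 at 16 mM and 10 for 16 mM against 10 mM, with 18.7%, 35.3% and 14.1% of all genes called. Each further count stands before the share of all genes called in the same fit. At 10 mM members called were 36 by the DESeq2 Wald test (25%), 8 with only the groups compared (12.4%), 93 and 84 in the first and second set alone (63.7% and 61.7%), 86 with the set as a block (57.6%) and 13 with libraries summed per set (12.3%). At 16 mM they were 80 with only the groups compared (64.3%), 97 and 98 in the sets alone (71.9% and 78%) and 94 with the set as a block (74%). Between the doses they were 2 with only the groups compared (4.61%), 75 and 80 in the sets alone (54.4% and 64.4%), 68 with the set as a block (57.6%) and 6 with libraries summed per set (5.36%). Leaving out 1 library in turn gave 10 to 61 at 10 mM, 25 to 79 at 16 mM and 4 to 46 between the doses, with the highest of each without 10 mM library 1. The share of all genes called in these fits ran from 13% to 45.2%, 28.2% to 65.9% and 6.4% to 44.1%. The ranges are therefore not read as a trait of the members. With fewer samples or genes the fits differ by construction; the cause was otherwise not tested. A replicate block gave 13 members called at 10 mM (14.5%), 31 with 16 mM (33.1%) and 6 for 16 mM against 10 mM (10.4%). Same-numbered libraries correlated in their deviations at -0.39 to 0.41, and 12 of 16 pairs were over 0.1. Pairing was taken only where every pair exceeds 0.1, which 4 pairs did not.

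Opposite calls of members came only from the fits by set or without 10 mM library 1, which called 44.1% to 78% of all genes. The counts that follow have no share over all genes beside them and are not read as a trait of the members. Members not called with all libraries were called with the opposite sign in at least 1 other fit in 25 cases at 10 mM, 7 at 16 mM and 35 for 16 mM against 10 mM. Among the genes named by rule, these were, at 10 mM, HNRNPA1 (-0.22), SNRNP200 (0.17), TRA2B (-0.25) and U2AF1 (-0.44) in the first set, HNRNPA1 (-0.21) and TRA2A (-0.13) in the second, HNRNPA1 (-0.21) and TRA2B (-0.17) with the set as a block, and TRA2B without 10 mM library 1 (-0.17, where leaving out other single libraries gave up to 0.23). At 16 mM they were DHX15 (-0.30), PRPF8 (-0.16) and SF3B1 (-0.24) in the second set. Between the doses they were SRSF3 in the first set (0.35) and TRA2B in the second (0.16). For genes named by rule and called with all libraries, 1241 of their values under the alternatives kept the call and direction and 217 kept only the direction. The alternatives reuse the same libraries, so these values are not independent, and the fits by set call a larger share of all genes. The scale log2(FPKM + 1) moved the median of all genes at 10 mM from 0.05 to -0.11 and between the doses from -0.06 to 0.10. NCBP2L had too few counts to be tested.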
